A study of Mus musculus with 6 samples.

Results

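The chemokine family of mouse liver was measured as 54 protein-coding genes of the 28601 genes in the deposited table. They were chosen by symbol: Ccl, Cxcl, Ccr and Cxcr followed by a digit, plus Cx3cl1 and Cx3cr1. Of 56 rows with such a name, 2 were annotated as pseudogenes (Ccl19-ps1 and Ccl19-ps3) and were left out. The 54 members were 36 ligands and 18 receptors. None was listed at 0 in all 6 libraries, and 41 had a count in every library. The filter on low counts left 45 members for testing, 30 ligands and 15 receptors, while the other 9 members were too low to measure.

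Bulk RNA was sequenced from the livers of 3 male mice with the PRDX1 Cys52Ser substitution and of 3 WT male mice. PRDX1 is peroxiredoxin 1, a peroxidase that reduces hydrogen peroxide through the cysteine replaced here. All 6 mice received CDAHFD, a choline-deficient, amino acid-defined, high-fat diet that gives steatohepatitis and fibrosis in mice, from 8 weeks of age and for 8 weeks by the titles. The treatment field differs from the titles: it reads 11, 12 and 13 weeks for Cys52Ser replicates 1 to 3 and 8, 9 and 10 weeks for WT replicates 1 to 3. If that field held true, the effect of genotype and that of diet duration could not be told apart. Every value describes livers under this diet, and livers under any other diet were not analysed here. The labels name neither the strain nor whether the mutant mice carried the substitution on both alleles.

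Chemokines are small secreted or membrane-tethered proteins that guide leukocytes along a gradient. They are named for the spacing of their first cysteines (CC, CXC, CX3C) and act through G protein-coupled receptors on the migrating cell. In injured liver, CCL2 and its receptor CCR2 draw monocytes out of the blood, CX3CL1 and CX3CR1 bear on monocyte-derived macrophage survival, CXCL16 and CXCR6 on natural killer T cells, CXCL13 and CXCR5 on B cells, and CXCL12 and CXCR4 on retention of many cell types. Most receptors are carried by leukocytes, whereas ligands come from hepatocytes, cholangiocytes, endothelial cells and leukocytes alike.

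Of the 54 members, 40 had a window of the 250 bases before an annotated start site in RefSeq (GRCm38.p6). The sequences of Cxcl13, the member called higher in Cys52Ser livers, of Cxcr4 and Cxcl14, which were called lower, and of Cxcl10, an abundant ligand that was not called, are shown 5′ to 3′. The windows lie at chr5:95956689-95956938 on the plus strand (Cxcl13), chr1:128592300-128592549 on the minus strand (Cxcr4), chr13:56296552-56296801 on the minus strand (Cxcl14) and chr5:92348890-92349139 on the minus strand (Cxcl10). Capitals mark matches to TATAAA, to the interferon-stimulated response element (paired GAAA with any 2 bases between), to TGANTCA (AP-1) and to the NF-κB consensus.
Cxcl13: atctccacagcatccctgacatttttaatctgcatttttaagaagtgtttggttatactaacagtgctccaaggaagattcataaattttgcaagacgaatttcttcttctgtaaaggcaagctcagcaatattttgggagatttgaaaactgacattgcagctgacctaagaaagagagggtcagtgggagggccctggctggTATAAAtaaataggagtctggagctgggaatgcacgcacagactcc
Cxcr4: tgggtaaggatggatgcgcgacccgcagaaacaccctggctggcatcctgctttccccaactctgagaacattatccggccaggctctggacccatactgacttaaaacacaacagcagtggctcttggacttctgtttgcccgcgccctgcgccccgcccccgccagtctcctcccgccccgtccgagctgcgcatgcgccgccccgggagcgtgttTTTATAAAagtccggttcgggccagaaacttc
Cxcl14: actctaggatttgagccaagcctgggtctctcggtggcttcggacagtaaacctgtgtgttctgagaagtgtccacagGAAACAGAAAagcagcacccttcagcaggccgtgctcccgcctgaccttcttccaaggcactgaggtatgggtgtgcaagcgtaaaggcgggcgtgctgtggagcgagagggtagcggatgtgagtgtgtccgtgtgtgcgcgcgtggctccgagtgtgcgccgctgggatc
Cxcl10: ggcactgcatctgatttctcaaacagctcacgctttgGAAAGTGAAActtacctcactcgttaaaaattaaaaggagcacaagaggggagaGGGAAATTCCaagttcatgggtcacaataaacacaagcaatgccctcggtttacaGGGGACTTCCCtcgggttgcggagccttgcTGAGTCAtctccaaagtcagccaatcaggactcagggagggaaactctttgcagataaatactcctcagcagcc
The Cxcl13 window held TATAAA with its first base 46 bases before the start site. The Cxcr4 window held overlapping matches to TATAAA on both strands, 30 and 32 bases before the start, and the Cxcl14 window held the response element 172 bases before it. The Cxcl10 window held that element at 213 bases, NF-κB matches at 159 bases and, overlapping each other, at 104 and 103 bases, and an AP-1 match at 74 bases. Over both strands, the NF-κB consensus was found in 21.3% of 47 member windows and 7.25% of all 32851 windows. TATAAA was found in 23.4% of member windows and 12.4% of all windows, TGANTCA in 12.8% of member windows and 6.75% of all, and the response element in 6.38% of member windows and 2.98% of all. Members of 1 gene cluster are related copies, so their windows are not independent of each other. Of the 10 members with an NF-κB match, 7 were tested and 0 were called by edgeR, where 4 of the 33 tested members with any window were called. With TATAAA 3 of 8 tested members were called (Cx3cl1, Cxcl13 and Cxcr4), with the response element 1 of 3 (Cxcl14) and with TGANTCA 0 of 5. The called members Ccl2 and Cxcl16 had no window and could not enter these counts, and 3 to 8 tested genes per motif are too few to compare the shares. A match is a description of these letters and not a bound site.

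Total counts were 56473479 to 73900923 per Cys52Ser library and 53318196 to 65465225 per WT library. Prdx1 itself stood at 859, 661 and 819 CPM in Cys52Ser livers and 864, 920 and 978 CPM in WT livers (edgeR adjusted p = 0.421), and a residue change cannot be seen in gene counts. CPM here is the count relative to the library size after scaling by the trimmed mean of M values (TMM). Hepatocyte markers summed to 112000 to 138000 CPM in Cys52Ser livers and 45600 to 74400 CPM in WT livers, and albumin took 8.08% to 8.49% of counts in Cys52Ser libraries and 3.6% to 5.55% in WT libraries. In bulk RNA, fewer cells of a type and less RNA per cell cannot be told apart. Within the Cys52Ser group, replicate 2 stood apart for Krt19, a bile duct keratin (7.77, 61.7 and 5.61 CPM in replicates 1 to 3, against 25.4, 13.8 and 12.1 CPM in WT), for the mesothelial gene Msln (1.45, 11.8 and 0.172 CPM, against 1.21, 1.41 and 3.28 CPM in WT) and for the pancreatic colipase gene Clps (23.6, 203 and 0 CPM, against 9.76, 15.1 and 28.9 CPM in WT). WT replicate 1 was the lowest library for Kupffer cell markers, with a sum of 253 CPM, and the highest for monocyte and macrophage markers, with 3010 CPM.

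Per transcript length, a few ligands made up much of the liver's chemokine transcripts. Ccl6 took 17.2% of the summed ligand FPKM in Cys52Ser livers and 19.3% in WT livers, Cxcl12 took 19.7% in Cys52Ser and 15.6% in WT livers, and Ccl9 took 14.9% in Cys52Ser and 14.1% in WT livers. Among receptors Cxcr4 led, with 26.2% of the summed receptor FPKM in Cys52Ser livers and 28.6% in WT livers, ahead of Cx3cr1 (11.1% in Cys52Ser, 16.6% in WT) and Ccr2 (13.9% in Cys52Ser, 13.7% in WT). FPKM averaged 32.4 ± 1.7 for Cxcl12, 28.5 ± 4.18 for Ccl6 and 24.7 ± 4.6 for Ccl9 in Cys52Ser livers, against 39.9 ± 12.7, 49 ± 11.7 and 35.6 ± 5.87 in WT livers (SD, n = 3 each). Neighbours in this order differed by less than their spread. The FPKM carry no TMM factors, so they serve to rank genes and not to compare genotypes. Of the 45 tested members, 31 had a mean FPKM over 1 and 6 over 10.

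**Figure D1:**
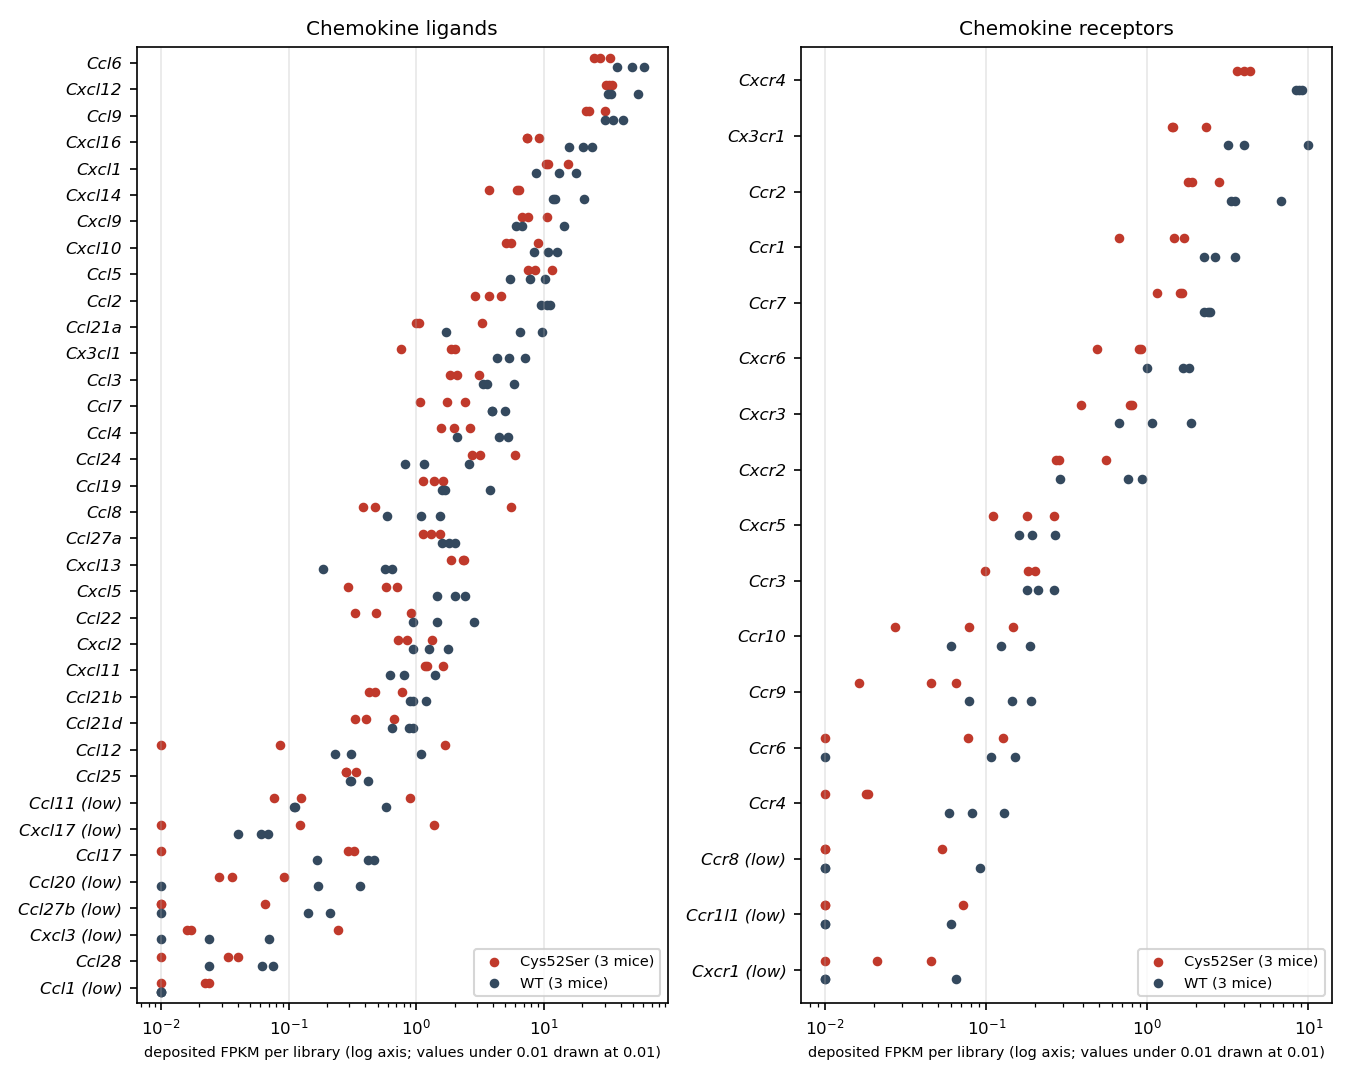
Deposited FPKM of the members in each library, apart from 1 that is not shown (log axis; Cys52Ser in red, WT in dark blue; "low" marks the 9 untested members), ordered by mean FPKM within ligands and within receptors. Cxcl12, Ccl6 and Ccl9 lead the ligands and Cxcr4 leads the receptors.

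Fewer transcripts of this family were seen in the mutant livers for 5 genes, and more for 1. Cxcl16, Cxcl14, Ccl2, Cx3cl1 and the receptor Cxcr4 were lower in Cys52Ser livers and Cxcl13 was higher, at an adjusted p under 0.05 in edgeR's quasi-likelihood test over all 18648 tested genes. That is 13.3% of the tested members, where 4.98% of all tested genes were called. By direction, 11.1% of members were called lower, against 2.46% of all genes, and 2.22% were called higher, against 2.52% of all genes. Of the 30 tested ligands 4 were called lower and 1 higher, and of the 15 tested receptors 1 was called lower and 0 higher. The median log2 fold change (Cys52Ser over WT) was -0.43 over the tested members and 0.00 over all tested genes; 33 members had a negative estimate and 12 a positive one. The median was -0.38 over ligands and -0.50 over receptors. Scaling by library totals alone moved both medians, to -0.78 for members and -0.35 for all genes. At an unadjusted p under 0.05, 13 members were lower and 3 higher, where 22.4% of all tested genes passed (11.1% lower and 11.3% higher). Groups did not overlap in 31.1% of tested members and 29.7% of all tested genes. By direction, 24.4% of tested members had lower values in Cys52Ser livers without overlap, against 15.2% of all genes, and 6.67% had higher values, against 14.4% of all genes. Ccr4, which passed the filter on low counts through the WT libraries, is among the lower members by unadjusted p and by lack of overlap. It also enters the medians over members and over receptors. Summed over all members, the level was 883, 670 and 763 CPM in Cys52Ser replicates 1 to 3 and 1050, 759 and 869 CPM in WT replicates 1 to 3, with the groups overlapping. The receptors alone summed to 94.8, 69.1 and 74.4 CPM in Cys52Ser livers and 167, 103 and 105 CPM in WT livers, without overlap.

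**Figure D2:**
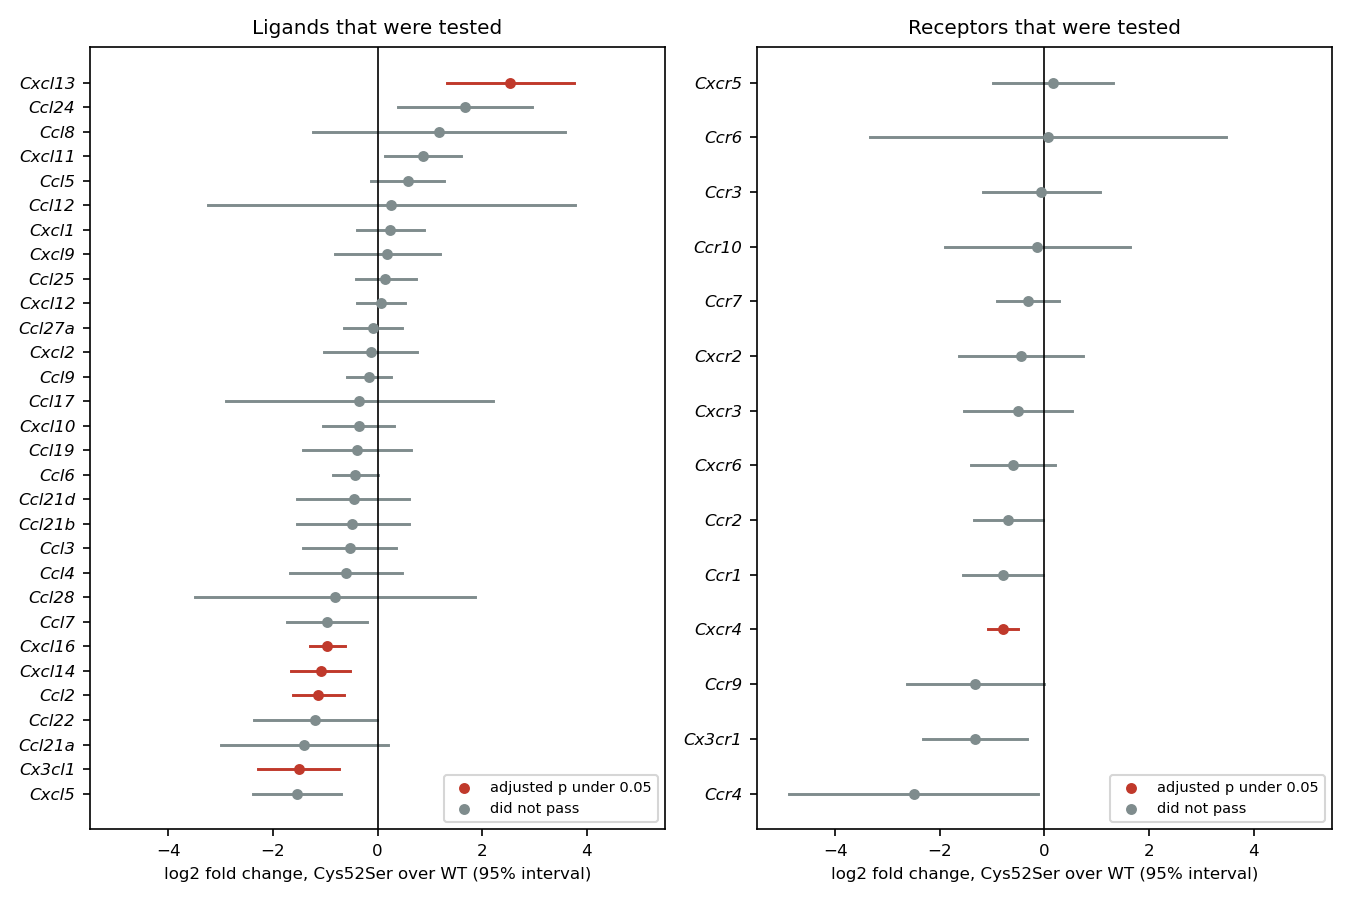
Log2 fold change (Cys52Ser over WT, edgeR) with its 95% interval for the tested ligands and receptors, apart from 1 receptor that is not shown. Red marks an adjusted p under 0.05: 5 members lie left of 0 and Cxcl13 lies right of it.

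Of 3 ligands of CCR2, the receptor that brings classical monocytes into the liver, Ccl2 was called lower in Cys52Ser livers. Ccl2 (monocyte chemoattractant protein 1; chr11:82035571-82037453, GRCm38) had 6.81, 5.04 and 4.56 CPM in Cys52Ser replicates 1 to 3, against 10.1, 12.1 and 13.8 CPM in WT replicates 1 to 3. All Cys52Ser livers were below all WT livers. The log2 fold change was -1.13 (SE 0.21, 95% interval -1.62 to -0.64, edgeR adjusted p = 0.0338), a 2.19-fold lower level. The call was lost on leaving out any 1 of the 6 libraries (adjusted p 0.0523 to 0.118) and with a replicate block (0.0703). Ccl2 overlaps the gene model Gm17268 on the opposite strand, so some of its counts are uncertain. Ccl7, a further CCR2 ligand beside Ccl2 in the chromosome 11 cluster, had 1.82, 2.28 and 1.19 CPM in Cys52Ser livers and 2.92, 3.96 and 3.45 CPM in WT livers. Its groups did not overlap, with lower values in Cys52Ser livers, but it did not pass (log2 fold change -0.96, unadjusted p = 0.0201, adjusted p = 0.137). Ccl12, a mouse CCR2 ligand, was highest in Cys52Ser replicate 2 and WT replicate 3: 0, 1.07 and 0.0766 CPM in Cys52Ser livers and 0.164, 0.132 and 0.658 CPM in WT livers. Without Cys52Ser replicate 2 its estimate turned to -3.06, against 0.26 with all libraries, and neither passed.

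Ccr2 itself had 24.2, 15.2 and 16.6 CPM in Cys52Ser livers and 42.2, 23.4 and 24.5 CPM in WT livers. Only Cys52Ser replicate 1 reached into the WT range, and WT replicate 1 was far above the other WT livers. The log2 fold change of -0.69 (95% interval -1.35 to -0.02) had an unadjusted p of 0.044 and an adjusted p of 0.207; it was -0.41 without WT replicate 1 and passed with a replicate block (0.0445). Markers of monocytes and macrophages moved beside this axis: 2 of 10 were called lower, 0 higher, and 6 had non-overlapping groups with lower values in Cys52Ser livers. Their sum was 1080 to 1450 CPM in Cys52Ser livers and 2040 to 3010 CPM in WT livers, none was at 0, and their part in the result was not tested. Lyz2, which encodes the myeloid lysozyme, led that sum with 808, 519 and 564 CPM in Cys52Ser livers and 2150, 1240 and 1410 CPM in WT livers (log2 fold change -1.34, adjusted p = 0.0403). Sirpa, a myeloid inhibitory receptor, passed too (-0.81, adjusted p = 0.0401). Ly6c2, a classical monocyte marker, had 5.2, 4.05 and 3.31 CPM in Cys52Ser livers and 5.07, 4.51 and 5.82 CPM in WT livers, with overlapping groups (adjusted p = 0.536).

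Fractalkine, the membrane-tethered ligand Cx3cl1 (chr8:94772009-94782427), was lower in Cys52Ser livers by the narrowest margin. Its level was 9.47, 9.44 and 4.1 CPM in Cys52Ser livers, against 26.1, 20.8 and 18.5 CPM in WT livers, so that the highest mutant liver was below the lowest WT liver. Its estimate on the log2 scale was -1.50 (SE 0.33, 95% interval -2.28 to -0.73, edgeR adjusted p = 0.049996), or 2.84-fold lower. Leaving out any 1 library ended the call (adjusted p 0.0697 to 0.141), as did size factors of the RLE type (0.0513), upper-quartile factors (0.0508), non-robust fits (0.0513) and no filter on low counts (0.055). Its receptor Cx3cr1, carried by monocytes and macrophages, had 13.4, 7.66 and 8.77 CPM in Cys52Ser livers and 41.5, 17.8 and 15.6 CPM in WT livers. The groups did not overlap, with lower values in Cys52Ser livers, and WT replicate 1 was far above the other WT livers. The estimate of -1.33 (95% interval -2.33 to -0.33) had an adjusted p of 0.125, and of 0.174 with an estimate of -0.80 without WT replicate 1; it passed by DESeq2 (0.003), with library totals (0.0457) and with a replicate block (0.0383). The span that the table gives Cx3cr1, chr9:119901616-120068296, overlaps several genes, among them Gorasp1 and Csrnp1 on the same strand, so its counts are uncertain.

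Cxcl16, the other membrane-tethered chemokine of the family (chr11:70453983-70459984), was the member with the smallest adjusted p. It had 35.7, 26.5 and 30.6 CPM in Cys52Ser livers, against 67, 61.1 and 52.4 CPM in WT livers. Every Cys52Ser liver was below every WT liver. The log2 fold change was -0.96 (SE 0.14, 95% interval -1.30 to -0.62, edgeR adjusted p = 0.023), 1.95-fold lower. The call held under 16 of 19 alternatives and was lost on leaving out Cys52Ser replicate 1 (0.064), Cys52Ser replicate 3 (0.0934) or WT replicate 2 (0.0662). Per length, FPKM averaged 8 ± 0.997 in Cys52Ser livers and 20 ± 3.98 in WT livers (SD, n = 3 each). The gene overlaps Zmynd15 on the opposite strand, which had 6.2, 6 and 7.14 CPM in Cys52Ser livers and 11.7, 9.14 and 7.97 CPM in WT livers; no source used here says if strand entered the counting. Its receptor Cxcr6, found on natural killer T cells and resident T cells, had 2.28, 2.02 and 1.3 CPM in Cys52Ser livers and 2.98, 3.47 and 2.1 CPM in WT livers, with overlapping groups and an estimate of -0.61 (95% interval -1.41 to 0.20, adjusted p = 0.355). The proteases ADAM10 and ADAM17 release CXCL16 and CX3CL1 from the membrane. Adam17 had 38.3, 33.6 and 36.2 CPM in Cys52Ser livers and 45.6, 48.5 and 42.3 CPM in WT livers (log2 fold change -0.34, adjusted p = 0.101), and Adam10 had an estimate of -0.25 (adjusted p = 0.282).

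Cxcr4, the receptor that holds leukocytes and progenitors at sites of CXCL12, was lower in Cys52Ser livers, and its ligand Cxcl12 did not pass the test. Cxcr4 (chr1:128588199-128592293) had 9.29, 9.3 and 8.98 CPM in Cys52Ser livers, against 14.8, 16.4 and 16.5 CPM in WT livers, with little spread within either genotype. No Cys52Ser liver reached the lowest WT liver. This gave a log2 fold change of -0.79 (SE 0.12, 95% interval -1.07 to -0.51, edgeR adjusted p = 0.0232), 1.73-fold lower. The same alternatives as for Cxcl16 ended the call: it was lost without Cys52Ser replicate 1 (0.0837), Cys52Ser replicate 3 (0.0934) or WT replicate 2 (0.0709) and kept under the other 16. Its promoter is the one printed with overlapping TATAAA matches. Cxcl12 (stromal cell-derived factor 1) had 359, 295 and 363 CPM in Cys52Ser livers and 414, 271 and 283 CPM in WT livers. The groups overlapped, and the estimate of 0.07 (95% interval -0.39 to 0.53, adjusted p = 0.875) turned negative with library totals (-0.30) and on FPKM without rescaling (-0.25 to -0.26). Ackr3, an atypical receptor that binds CXCL12 and scavenges it, had 2.81, 3.99 and 2.28 CPM in Cys52Ser livers and 6.07, 3.47 and 4.44 CPM in WT livers (adjusted p = 0.302). Dpp4, a peptidase that truncates CXCL12, had 142, 131 and 156 CPM in Cys52Ser livers and 113, 85.5 and 134 CPM in WT livers (adjusted p = 0.273).

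Cxcl13, the attractant of B cells into lymphoid follicles (chr5:95956951-95961068), was the called member that was higher in Cys52Ser livers. It had 3.5, 3.22 and 2.93 CPM in Cys52Ser livers, against 0.202, 0.74 and 0.728 CPM in WT livers. All 3 Cys52Ser livers were above all 3 WT livers, at low levels throughout (557 counts over the Cys52Ser libraries and 103 over the WT libraries). The log2 fold change was 2.53 (SE 0.52, 95% interval 1.32 to 3.75, edgeR adjusted p = 0.0426), 5.80-fold higher. The call was lost on leaving out Cys52Ser replicate 1 (0.127), Cys52Ser replicate 2 (0.0708), Cys52Ser replicate 3 (0.112), WT replicate 2 (0.102) or WT replicate 3 (0.0746), and with a replicate block (0.0702). It was kept without WT replicate 1 (0.0461). Its receptor Cxcr5, carried by B cells and follicular helper T cells, had 1.15, 0.7 and 0.536 CPM in Cys52Ser livers and 0.506, 0.641 and 0.988 CPM in WT livers. The groups overlapped (log2 fold change 0.16, 95% interval -0.99 to 1.32, adjusted p = 0.89), and Cxcr5 overlaps Bcl9l on the opposite strand. Of 8 B and plasma cell markers, 0 were called by edgeR; 1 was higher and 1 lower at an unadjusted p under 0.05. Their sum was 14.1 to 23.5 CPM in Cys52Ser livers and 16.2 to 17.5 CPM in WT livers, and none was at 0. Kupffer cell markers were higher beside Cxcl13, with 2 of 6 called higher, 0 lower and none at 0, and a sum of 821 to 1070 CPM in Cys52Ser livers and 253 to 701 CPM in WT livers; their part in the result was not tested. Clec4f, a lectin restricted to Kupffer cells in mice, had 283, 218 and 270 CPM in Cys52Ser livers and 48.8, 94.7 and 118 CPM in WT livers (log2 fold change 1.56, adjusted p = 0.0425), and Folr2 passed as well (1.20, adjusted p = 0.0334).

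**Figure D3:**
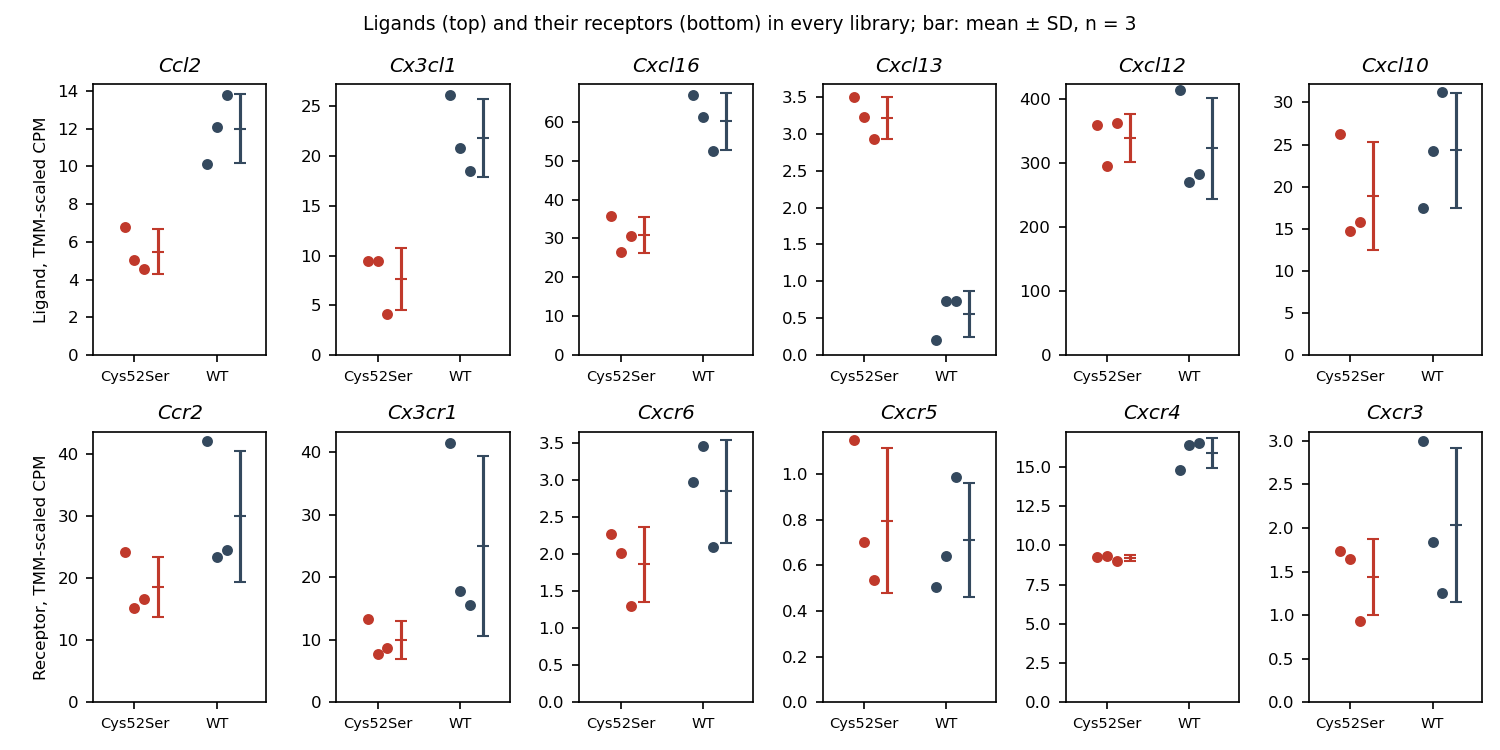
TMM-scaled CPM of 6 ligands (top) and a receptor of each (bottom) in every library, Cys52Ser in red and WT in dark blue; the bar is the mean ± SD (n = 3). Ccl2, Cx3cl1, Cx3cr1, Cxcl16 and Cxcr4 lie lower in all 3 Cys52Ser livers (Cx3cr1 did not pass the test) and Cxcl13 higher, while Cxcl12, Cxcl10, Cxcr6, Cxcr5, Cxcr3 and Ccr2 overlap between genotypes.

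Cxcl14, a homeostatic chemokine made largely by epithelial and stromal cells (chr13:56288643-56296551), was lower in Cys52Ser livers. Its level was 14.7, 13.8 and 9.36 CPM in Cys52Ser livers, against 35, 21.5 and 24.3 CPM in WT livers, and the groups did not overlap. Its log2 fold change was -1.09 (SE 0.24, 95% interval -1.65 to -0.53, edgeR adjusted p = 0.0494), 2.13-fold lower. The call stood under 10 of 19 alternatives: leaving out any 1 library ended it (0.0799 to 0.137), as did RLE factors (0.0504), non-robust fits (0.0524) and rescaled FPKM with limma (0.0546). Stellate cell markers were lower beside it, with 4 of 8 called lower and 0 higher, none at 0, and a sum of 776 to 855 CPM in Cys52Ser livers and 1250 to 2090 CPM in WT livers. Cholangiocyte markers summed to 140 to 442 CPM in Cys52Ser livers and 611 to 1300 CPM in WT livers, and none was at 0. By edgeR 1 of 7 was called lower (Cldn7, -2.50, adjusted p = 0.0393) and 0 higher. Most of the sum was Spp1, with 141, 335 and 116 CPM in Cys52Ser livers and 1160, 618 and 558 CPM in WT livers (edgeR adjusted p = 0.0691). Of the 7 estimates 6 were negative, and that of Krt19 was positive (0.55, edgeR adjusted p = 0.806). Groups did not overlap for Spp1, Epcam and Cldn7, with lower values in Cys52Ser livers (15.2% of all tested genes). They overlapped for Krt19, Krt7, Sox9 and Muc1, so the sum follows Spp1 and does not describe the whole list. The part of either cell type in the level of Cxcl14 was not tested.

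Ligands of CXCR2, which recruit neutrophils, gave no call. Cxcl1 had 37.5, 23.9 and 26.9 CPM in Cys52Ser livers and 31.3, 16.2 and 27.1 CPM in WT livers, with overlapping groups (log2 fold change 0.24, 95% interval -0.40 to 0.89, adjusted p = 0.665); the sign turned with library totals (-0.12) and on FPKM (-0.08). Cxcl2 had 3.6, 2.08 and 2.07 CPM in Cys52Ser livers and 2.48, 1.99 and 4.04 CPM in WT livers, again overlapping (adjusted p = 0.881). Cxcl5, a ligand made by epithelial cells, came closest, with 1.42, 1.56 and 0.766 CPM in Cys52Ser livers and 3.48, 4.46 and 3 CPM in WT livers. All Cys52Ser values were under all WT values, and the estimate of -1.54 (SE 0.36, 95% interval -2.39 to -0.69) had an unadjusted p of 0.00342 and an adjusted p of 0.0579; 7 of 19 alternatives passed it. The receptor Cxcr2 had 2.19, 0.976 and 1.19 CPM in Cys52Ser livers and 2.15, 2.83 and 0.97 CPM in WT livers (estimate -0.45, adjusted p = 0.666). Of 6 tested neutrophil markers 0 were called by edgeR, and 1 was lower at an unadjusted p under 0.05; they summed to 18.1 to 32.6 CPM in Cys52Ser livers and 31.5 to 36 CPM in WT livers. S100a8 was at 4.56, 2.3 and 2.09 CPM in Cys52Ser livers and 2.78, 4.64 and 2.5 CPM in WT livers, and Camp was at 0 in Cys52Ser replicates 2 and 3.

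The interferon-induced ligands of CXCR3, which attract effector T cells and natural killer cells, gave no call. Cxcl9 had 41.4, 24.2 and 31 CPM in Cys52Ser livers and 16.8, 20.3 and 47.8 CPM in WT livers; WT replicate 3 was the highest of all and the other WT livers the lowest (log2 fold change 0.19, adjusted p = 0.846; -0.13 with library totals). Cxcl10 had 26.3, 14.7 and 15.8 CPM in Cys52Ser livers and 17.5, 24.2 and 31.2 CPM in WT livers, with overlap (estimate -0.36, 95% interval -1.04 to 0.32, adjusted p = 0.529). Cxcl11 had 7.94, 5.49 and 6.11 CPM in Cys52Ser livers and 4.97, 2.37 and 3.33 CPM in WT livers. Its Cys52Ser values were all higher, by 1.83-fold on the fitted scale, but it did not pass (unadjusted p = 0.0245, adjusted p = 0.15). Cxcl10 and Cxcl11 overlap Art3 on the opposite strand, so their counts carry that uncertainty. Cxcr3 had 1.74, 1.64 and 0.938 CPM in Cys52Ser livers and 3, 1.84 and 1.26 CPM in WT livers (estimate -0.50, adjusted p = 0.569). T and natural killer cell markers had 0 of 11 called by edgeR (2 higher and 0 lower at an unadjusted p under 0.05), none at 0, and a sum of 18.8 to 24.7 CPM in Cys52Ser livers and 16.2 to 19.4 CPM in WT livers.

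Of 5 inflammatory CC ligands, among them Ccl6 and Ccl9, the CC chemokines with the highest FPKM, 0 passed (edgeR; 0 at an unadjusted p under 0.05). Ccl6, a rodent ligand of CCR1, had 76.7, 58.6 and 61 CPM in Cys52Ser livers and 101, 66.6 and 96 CPM in WT livers. The groups overlapped, and the estimate of -0.43 (95% interval -0.86 to 0.01, adjusted p = 0.23) passed under 4 of 19 alternatives. Ccl9, also a rodent CCR1 ligand, had 118, 77.2 and 94.5 CPM in Cys52Ser livers and 118, 91.3 and 115 CPM in WT livers (estimate -0.17, adjusted p = 0.65). Ccl5 (RANTES), a product of T and natural killer cells, had 14.6, 9.68 and 9.84 CPM in Cys52Ser livers and 6.92, 5.26 and 10.7 CPM in WT livers, where WT replicate 3 lay among the Cys52Ser values (estimate 0.58, adjusted p = 0.307). The macrophage inflammatory proteins Ccl3 and Ccl4 overlapped between genotypes, with estimates of -0.53 (adjusted p = 0.479) and -0.60 (adjusted p = 0.504). The receptor Ccr1 had 6.18, 4.92 and 2.6 CPM in Cys52Ser livers and 9.26, 6.35 and 8.16 CPM in WT livers. Its values did not overlap, the lowest being Cys52Ser replicate 3, yet the estimate of -0.79 did not pass (unadjusted p = 0.0442, adjusted p = 0.208).

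Ccl24 (eotaxin-2), an eosinophil attractant that macrophages make and that acts through CCR3, stood out among the uncalled members with higher values. It had 9.96, 4.84 and 4.9 CPM in Cys52Ser livers, against 1.39, 1.05 and 3.71 CPM in WT livers. All Cys52Ser livers were above all WT livers, and WT replicate 3 lay closest to them. The log2 fold change of 1.68 (SE 0.54, 95% interval 0.40 to 2.96) had an unadjusted p of 0.0171 and an adjusted p of 0.126; it passed without WT replicate 3 (2.37, adjusted p = 0.0499) and by DESeq2 (0.00586). Ccr3 had an estimate of -0.06 (adjusted p = 0.962). Ccl11, a further eosinophil attractant, was too low to test, with 0.122, 1.16 and 0.191 CPM in Cys52Ser livers and 0.114, 0.625 and 0.139 CPM in WT livers; replicate 2 of either genotype was the highest.

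Receptors and ligands of dendritic cell and T cell traffic were low. Ccr7, which takes dendritic cells and naive T cells to lymphoid tissue, had 4.1, 2.69 and 4.48 CPM in Cys52Ser livers and 4.36, 4.8 and 4.85 CPM in WT livers, with overlap between Cys52Ser replicate 3 and WT replicate 1 (estimate -0.31, adjusted p = 0.527). Its ligand Ccl21a had 1.13, 3.41 and 1.26 CPM in Cys52Ser livers and 5.26, 8.39 and 1.61 CPM in WT livers. WT replicate 3 lay within the Cys52Ser range, and the estimate of -1.40 (95% interval -2.99 to 0.20) did not pass (adjusted p = 0.282). Ccl21a, Ccl21b and Ccl21d are near-identical copies, so the split of counts among them is uncertain. Ccl19, the other CCR7 ligand, had an estimate of -0.40 (adjusted p = 0.658). Dendritic cell markers had 2 of 8 called lower by edgeR, Itgax (-1.34, adjusted p = 0.0484) and H2-Ab1 (-0.97, adjusted p = 0.0415), 0 higher and none at 0. They summed to 118 to 175 CPM in Cys52Ser livers and 244 to 355 CPM in WT livers. Most of that sum was H2-Ab1, with 125, 80.5 and 101 CPM in Cys52Ser livers and 240, 185 and 177 CPM in WT livers. All 8 estimates were negative. Among the uncalled markers they were -0.07 for Zbtb46, -0.11 for Clec9a, -0.50 for Flt3, -0.54 for Xcr1, -0.93 for Siglech and -1.58 for Cd209a. The part of dendritic cells in these levels was not tested.

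Ccl22, a macrophage and dendritic cell ligand of CCR4, had 2.72, 0.92 and 1.57 CPM in Cys52Ser livers and 6.11, 3.35 and 2.41 CPM in WT livers. Cys52Ser replicate 1 was above WT replicate 3, and the estimate of -1.19 did not pass (unadjusted p = 0.0487, adjusted p = 0.22). Ccr4, a receptor of regulatory and type 2 helper T cells, had 0, 0.0736 and 0.0766 CPM in Cys52Ser livers and 0.379, 0.197 and 0.277 CPM in WT livers, or 8 counts over the Cys52Ser libraries and 58 over the WT libraries. It passed the filter through the WT libraries, so its lower values (estimate -2.50, unadjusted p = 0.041, adjusted p = 0.198) are not independent of that filter. Ccr9, a gut-homing receptor, had 0.612, 0.828 and 0.249 CPM in Cys52Ser livers and 1.39, 1.96 and 0.884 CPM in WT livers, without overlap (estimate -1.32, unadjusted p = 0.0481, adjusted p = 0.218); its span overlaps other genes, among them Lztfl1 on the opposite strand, which had 15.1, 11.2 and 10.3 CPM in Cys52Ser livers and 14.5, 16.1 and 16.1 CPM in WT livers, so the counts of Ccr9 are uncertain. Ccl25, the ligand of CCR9, had an estimate of 0.15 (adjusted p = 0.772), which turned to -0.20 with library totals. The remaining tested members, Ccl8, Ccl17, Ccl21b, Ccl21d, Ccl27a, Ccl28 and Ccr10, had adjusted p-values of 0.566, 0.895, 0.605, 0.618, 0.875, 0.736 and 0.945. Counts are also uncertain for Ccl27a, which has a near-identical copy in Ccl27b, and for Ccl6, Ccl25, Ccl27a, Ccr10 and Cxcr6, which overlap genes on the opposite strand.

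Of the 54 members, 9 were too low to be measured. Ccl20, the ligand of CCR6 on Th17 cells, had 0.0612, 0.166 and 0.0766 CPM in Cys52Ser livers and 0.228, 0.526 and 0 CPM in WT livers. Ccr6 itself passed the filter with 0.398, 0.221 and 0 CPM in Cys52Ser livers and 0.341, 0.247 and 0 CPM in WT livers, at 0 in replicate 3 of either genotype (adjusted p = 0.986). The other untested ligands were Ccl1, Ccl11, Ccl27b, Cxcl3 and Cxcl17, and the untested receptors were Ccr8, Ccr1l1 and Cxcr1. Untested members had 0 to 72 counts per library. Tested members near that limit included Ccl17, with 0 to 18 counts, Ccr10, with 4 to 24, Ccl28, with 0 to 24, Ccr6, with 0 to 27, and Ccr4, with 0 to 30.

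Beyond the family, the signalling genes that chemokine receptors share had mostly negative estimates. Of 28 tested genes for G proteins, phosphoinositide 3-kinases, arrestins and regulators of G protein signalling, 4 were called lower and 0 higher (2.46% and 2.52% of all tested genes), 27 had a negative estimate, and the median log2 fold change was -0.36, against 0.00 over all genes. Rgs2, which limits Gq signals, had 20.2, 15 and 18.5 CPM in Cys52Ser livers and 35.2, 33.4 and 33.6 CPM in WT livers, without overlap (estimate -0.93, adjusted p = 0.0203). Rgs1, which dampens chemokine receptor signals in lymphocytes, had 15.7, 18.4 and 23.7 CPM in Cys52Ser livers and 35, 34.6 and 37.5 CPM in WT livers (estimate -0.89, adjusted p = 0.0314). Pik3r5, a regulatory subunit of the leukocyte kinase PI3Kγ (-0.84, adjusted p = 0.0242), and Grk5, a kinase that desensitises receptors (-1.02, adjusted p = 0.045), were lower as well. With library totals in place of TMM the median was -0.72 for these genes and -0.35 over all genes. The list holds genes of leukocytes: beside it, the monocyte and macrophage markers had a median of -0.61 and the dendritic cell markers one of -0.73, and their part in the result was not tested.

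The list of atypical receptors, which bind chemokines without classical signalling, also held Cmklr1 and Pitpnm3, which do not meet that definition. Of its 8 tested genes 1 was called higher and 0 lower (2.52% and 2.46% of all tested genes), with a median of -0.19. Gpr182, an endothelial scavenger of chemokines, had 41.5, 40.7 and 50.6 CPM in Cys52Ser livers, against 29, 30.1 and 29.9 CPM in WT livers. All Cys52Ser livers were above all WT livers (log2 fold change 0.57, SE 0.11, adjusted p = 0.0388). Endothelial markers were higher beside it, with 2 of 7 called higher (Cdh5, 0.81, adjusted p = 0.0315, and Kdr, 0.65, adjusted p = 0.0243), 0 lower and none at 0, and a sum of 331 to 416 CPM in Cys52Ser livers and 257 to 322 CPM in WT livers; their part in the result was not tested. The median of the endothelial list was 0.44 with TMM factors, where that of all genes was 0.00, and 0.08 with library totals, where that of all genes was -0.35. Ccrl2 had 5.83, 5.3 and 5.55 CPM in Cys52Ser livers and 8.76, 9.42 and 7.71 CPM in WT livers and did not pass (adjusted p = 0.0679). A mixed list of 13 genes held proteases that process chemokines, the heparan sulfate genes Sdc1, Sdc4, Ndst1 and Ext1, and Rarres2. By edgeR 1 was called lower and 0 higher (2.46% and 2.52% of all tested genes). Of the estimates 7 were positive and 6 negative (median 0.00), so the median does not describe the proteases alone. The called gene Mmp2, a gelatinase that truncates CCL7 and CXCL12, had 14.7, 18 and 13.4 CPM in Cys52Ser livers, against 97.2, 48.2 and 39.8 CPM in WT livers (estimate -2.01, edgeR adjusted p = 0.033).

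Of NF-κB genes and other regulators and cytokines upstream of chemokine promoters, 1 of 14 tested genes was called lower and 0 higher, with a median of -0.16. Relb, a subunit of the noncanonical NF-κB pathway, had 8.08, 7.93 and 8.06 CPM in Cys52Ser livers, against 18.9, 17.9 and 17.5 CPM in WT livers. Its 3 values within each genotype were close together and the groups lay far apart (log2 fold change -1.17, SE 0.12, adjusted p = 0.0123). The cytokine genes Tnf and Il1b did not pass, with estimates of -0.57 (adjusted p = 0.517) and -0.15 (adjusted p = 0.843). The 4 further chemokine genes outside the naming rule, Pf4, Ppbp, Xcl1 and the receptor gene Xcr1, gave 0 calls by edgeR. Their median was -0.58, and 1 was lower and 0 higher at an unadjusted p under 0.05.

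**Figure D4:**
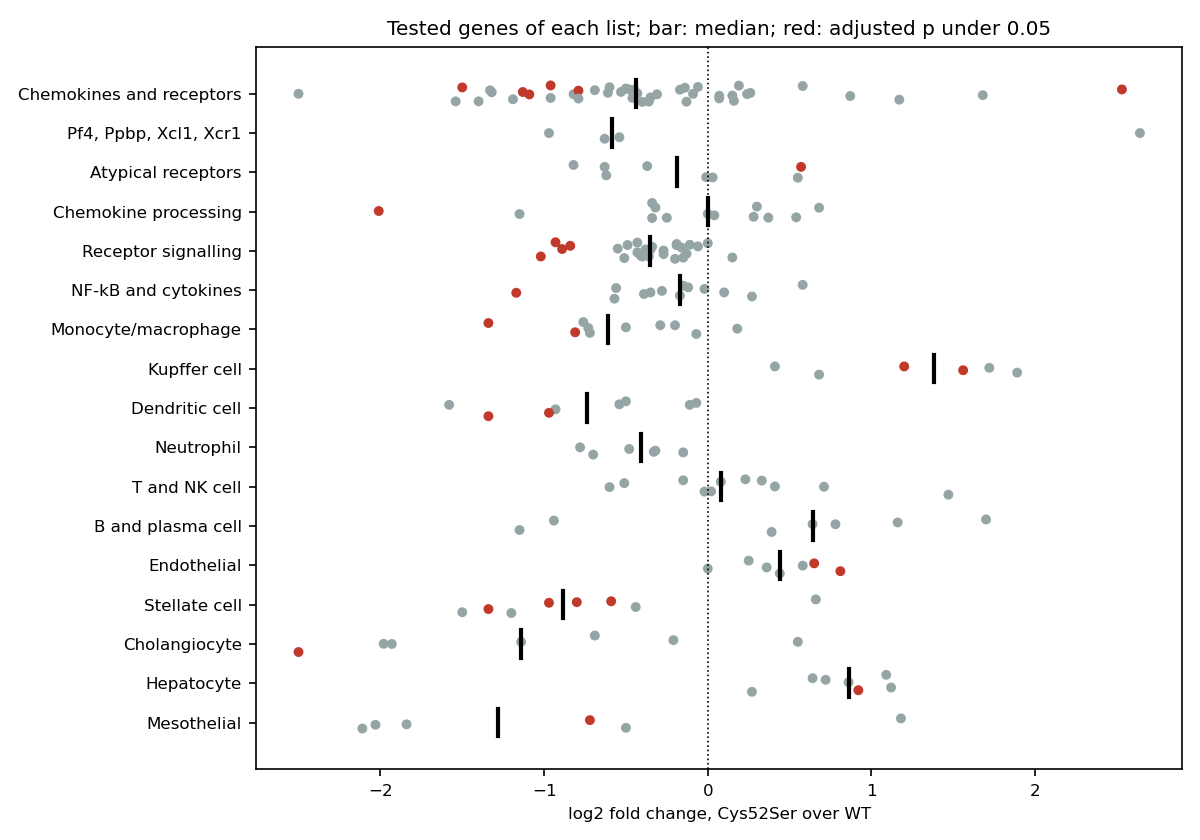
Log2 fold change (Cys52Ser over WT, edgeR) of tested genes of the chemokine family, of 5 related gene lists and of 11 cell type marker lists, with the median of the genes drawn as a bar and genes with an adjusted p under 0.05 in red. The monocyte and macrophage list lies at -0.61 and the Kupffer cell list at 1.38.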

How the data were processed

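Per the file headers, the deposited table holds 2 values for each gene in each library, an estimated count and the authors' FPKM. Tools named in the submitters' processing notes, with no role given, are StringTie 1.3.4d, edgeR, DESeq2, UMI-tools, HISAT2 2.0.4 and cutadapt 1.9; the build named there is mm9. Of 28601 gene identifiers, 28524 were in GENCODE M21 (GRCm38), 89.9% of them with identical coordinates, so positions are given as GRCm38. The deposited counts are whole numbers that follow coverage-based estimates: FPKM multiplied by length gave the count to within 1% for 89.9% to 92.4% of the single-transcript genes checked in a library. Libraries were strand-marked, per the labels' protocols, but no source used here says if strand entered the counting.

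Counts were tested with edgeR 4.0.16 in R 4.3.3 (genotype as the only term, TMM factors, robust quasi-likelihood fits, genes kept by filterByExpr at a minimum count of 10), with Benjamini-Hochberg adjustment over 18648 genes at 0.05. The standard error is the log2 fold change over the square root of its F statistic. The fitting code was tested on simulated data. Groups came from the titles, and the series design states 3 mice per genotype. No 2 libraries of a group agreed within sampling noise (chi-square per degree of freedom 86.9 or more), and the common biological coefficient of variation was 0.358. Levels are compared within a gene as TMM-scaled CPM and between genes as the authors' FPKM. Alternatives were a replicate block, leaving out each library, DESeq2 1.42.0, other filters and scaling factors, non-robust fits, and limma 3.58.1 on log2(FPKM + pseudocount).

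The members and all gene lists were chosen with earlier results of these data known, so the counts over them describe these livers and are not independent support. Values in every library are given for members past the adjusted threshold or an unadjusted p of 0.05, for the 8 tested members with the highest mean FPKM, and for a list of well-known ligands and receptors. Promoter windows are RefSeq's. No window was found for 14 members, Ccl2 and Cxcl16 among them, so their promoters were not searched. A few genes, 1 tested member among them, are not reported here by name or drawn, though they stay in the counts.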

Additional observations from a re-analysis of the deposited data

How the results depend on the processing

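With 3 mice per genotype the calls rest on few libraries. With all libraries 928 genes were called, and with 1 library left out the total was 28 to 790 genes, and of the members 0 to 2 were then called lower and 0 to 1 higher; none was called lower without Cys52Ser replicate 1, Cys52Ser replicate 3 or WT replicate 2. Of 809 alternative values of the 44 tested members reported by name, 692 kept direction and side of the threshold, 38 fell short of it, 23 passed it and 56 changed sign. No called member changed sign in any of the 19 alternatives. Ccr6, Ccl12, Ccl17, Ccr4 and Ccl28 were tested members at 0 in at least 1 library, so depth limits how well their levels are known there.

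DESeq2 called 2475 genes, with 2 members higher and 7 lower. Library totals alone gave 3017 genes, 293 of them higher and 2724 lower where TMM gave 469 and 459, and 8 members lower. Limma on FPKM with pseudocounts of 0.1, 0.5 and 1 called 2908, 2820 and 2686 genes and 9 members lower each time. RLE factors and non-robust fits left 3 members lower each. These shifts' cause was not tested, apart from the scaling itself, which moves the median of all genes to -0.35 with library totals. The replicate block called 729 genes, with 6 members lower and 0 higher. Deviations from the group mean correlated at -0.04, 0.14 and 0.02 between libraries with the same number, and at -0.1 to 0.11 between libraries with different numbers. With 3 libraries per group these values cannot decide whether the replicate numbers pair the mice.

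Signs turned as follows. With library totals Ccl25 was -0.20, Cxcl1 -0.12, Cxcl9 -0.13, Ccr6 -0.30, Cxcr5 -0.16 and Cxcl12 -0.30. With limma on FPKM and no filter, Ccl25 was -0.08, Cxcl1 -0.08, Cxcl9 -0.04, Ccl12 -0.18, Ccr6 -0.04, Cxcr5 -0.05 and Cxcl12 -0.25. With a pseudocount of 0.1, Ccl25 was -0.14, Cxcl1 -0.08, Cxcl9 -0.04, Ccl12 -0.76, Cxcr5 -0.13 and Cxcl12 -0.26. With 0.5, Ccl25 was -0.08, Cxcl1 -0.08, Cxcl9 -0.04, Ccl12 -0.18, Cxcr5 -0.05 and Cxcl12 -0.25, and with 1 they were -0.05, -0.08, -0.04, -0.07, -0.03 and -0.25. Ccl12 was -0.09 on rescaled FPKM and -1.53 with the replicate block. Leaving out 1 library moved Ccl8 between -0.96 and 1.65, Cxcl1 between -0.04 and 0.40, Cxcl9 between -0.13 and 0.74, Ccl17 between -0.83 and 0.23, Ccl12 between -3.06 and 1.32, Ccr3 between -0.29 and 0.23, and Ccr6 between -0.82 and 0.70. The range was -0.81 to 0.23 for Ccr10, -0.20 to 0.42 for Cxcr5, -0.45 to 0.15 for Cxcl2, -0.09 to 0.24 for Cxcl12, -0.71 to 0.04 for Ccl19 and -0.27 to 0.01 for Ccl27a. None of these members passed the test with all libraries.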

Other observations

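Many chemokine genes lie in clusters of related copies. On chromosome 11, which holds the CC cluster and Cxcl16, 12 of 14 members were tested, 2 were called lower and 0 higher (2.46% and 2.52% of all tested genes), and the median log2 fold change (Cys52Ser over WT) was -0.37. On chromosome 5, which holds the CXC cluster and Ccl24, 8 of 9 were tested, 1 was called higher and 0 lower, and the median was 0.21, or -0.12 with library totals. On chromosome 9, where many receptor genes lie, 9 of 11 were tested; 8 had a negative estimate, 4 had non-overlapping groups with lower values in Cys52Ser livers (15.2% of all tested genes), and the median was -0.69. No member there was called by edgeR, and 5 were lower and 0 higher at an unadjusted p under 0.05 (11.1% and 11.3% of all tested genes). Ccr4, which passed the filter on low counts through the WT libraries, is among both counts.

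Some members were high in 1 library of their group, with at least 50 counts and at least 5 times the next library of their group. Ccl8 (180 counts, 3.31 CPM), Ccl11 (63 counts), Ccl12 (58 counts) and Cxcl17 (68 counts) were high in Cys52Ser replicate 2, and Cxcl3 (72 counts) in Cys52Ser replicate 1. Ccl8 had 0.321, 3.31 and 0.268 CPM in Cys52Ser livers and 0.291, 0.575 and 0.866 CPM in WT livers, with an estimate of 1.17 that was -0.96 without Cys52Ser replicate 2. The same library was the highest of its group for Muc1 (3.37, 16.8 and 1.8 CPM in Cys52Ser livers, against 11.3, 8.35 and 5.67 CPM in WT livers) and Des (10.7, 60.1 and 9.76 CPM, against 20.8, 16.9 and 13.3 CPM in WT livers). No member was carried by 1 library in this way in WT livers.

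Further marker lists gave few calls. Of 6 listed mesothelial genes 1 was called lower by edgeR (Krt8, -0.72, adjusted p = 0.0368). Krt8 had 425, 419 and 444 CPM in Cys52Ser livers and 620, 743 and 757 CPM in WT livers, far above the rest of that list. Wt1 (-1.84, edgeR adjusted p = 0.0513) and Msln (1.18, edgeR adjusted p = 0.654) did not pass. Of 5 genes listed as peritoneal macrophage markers 1 was called higher (Prg4, 1.23, edgeR adjusted p = 0.0107). Prg4 had 49.8, 46.1 and 48.8 CPM in Cys52Ser livers and 18.2, 21.6 and 21.8 CPM in WT livers. The other 4 peritoneal macrophage markers did not pass; Gata6 had an estimate of -0.21 and Alox15 one of -0.63, and the median of the list was 0.19. Hepatocyte markers had 1 of 7 called higher (Hnf4a, 0.92, adjusted p = 0.0355). Lymphatic and erythroid markers gave 0 calls by edgeR. At an unadjusted p under 0.05, 1 lymphatic marker was higher (Prox1, 0.97) and 1 lower (Reln, -0.52), and 1 erythroid marker was higher. Mean levels of Prox1 and Reln were 146 and 74.3 CPM in Cys52Ser livers and 74.7 and 107 CPM in WT livers. Those of the lymphatic markers Mmrn1 and Pdpn were 0.913 and 0.975 CPM in Cys52Ser livers and 1.69 and 1.55 CPM in WT livers. The cells behind Prox1, Reln, Prg4 and Krt8 were not tested, so these genes need not speak for the cell type they are listed under. Of the 3 tested pancreatic markers 0 were called, and 0 had an unadjusted p under 0.05.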
